A study of Mus musculus with 37 samples.

Results

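Messenger RNA levels of 9 enzymes of the tricarboxylic acid (TCA) cycle were followed in mouse macrophage cultures under osteoclastic differentiation. Osteoclasts are the large multinucleated cells that break down bone. The members, Cs, Idh3a, Idh2, Ogdh, Dlst, Suclg1, Fh1, Mdh2 and Mdh1, were picked by gene name as enzymes of the cycle and its malate step, and they are 9 of the 23170 genes listed in the RNA-seq tables. All 9 passed the low-count filter that left 12774 genes to test. The cells were bone-marrow-derived macrophages under osteoclastic differentiation at day 0, day 2 and day 4, either wild type (WT) or carrying a knockout (KO) of Arid1a, which encodes a subunit of the BAF chromatin-remodelling complex. Each of the 6 groups held 2 RNA libraries, 12 in all, with total counts of 16282164 to 18608353. Strain, age, the means of knockout and the differentiation factors are not given in the sources used here. Nothing in the labels says that the 2 libraries of a group came from separate animals or cultures, so the p-values measure only the spread between these libraries, which may be technical.

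The TCA cycle runs in the mitochondrial matrix. Citrate synthase joins acetyl-CoA to oxaloacetate, the following dehydrogenases release carbon dioxide and load NADH, and malate dehydrogenase regenerates oxaloacetate, while the NADH feeds the respiratory chain. Mature osteoclasts are known to be rich in mitochondria, and the coactivator encoded by Ppargc1b is known to promote mitochondrial biogenesis in them.

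Because these genes were followed as a group, the start regions of 2 of them are printed: Mdh2, whose mRNA rose strongly over the WT course, and Fh1, the member whose day 4 level did not pass the test against day 0. Both windows come from RefSeq on GRCm38.p6, run 5′ to 3′ along the gene and span 250 bases before to 50 bases after the annotated start. Mdh2 lies at chr5:135778399-135778698 on the plus strand and Fh1 at chr1:175625586-175625885 on the minus strand. Capitals mark GGGCGG, the letters of an Sp1 box, or its reverse complement.
Mdh2: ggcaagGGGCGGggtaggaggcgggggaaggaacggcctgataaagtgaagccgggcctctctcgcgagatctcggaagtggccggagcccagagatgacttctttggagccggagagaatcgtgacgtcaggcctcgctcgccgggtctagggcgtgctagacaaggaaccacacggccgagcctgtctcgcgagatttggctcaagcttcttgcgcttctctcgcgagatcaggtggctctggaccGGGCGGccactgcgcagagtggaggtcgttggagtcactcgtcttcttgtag
Fh1: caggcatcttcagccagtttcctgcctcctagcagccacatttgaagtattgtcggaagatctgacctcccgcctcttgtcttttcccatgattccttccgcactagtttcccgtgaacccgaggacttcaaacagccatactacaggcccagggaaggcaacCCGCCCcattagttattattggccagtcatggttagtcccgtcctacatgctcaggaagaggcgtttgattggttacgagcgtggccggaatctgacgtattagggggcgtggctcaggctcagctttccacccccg
A window was at hand for 8 of the 9 members, all but Idh3a, and for Ogdh the first of 6 listed windows was read. GGGCGG stood on either strand in 7 of the 8 windows, all but that of Suclg1, against 35.9% of the 27025 genes in the same table. GC content ran from 51.0% in Suclg1, below the median of 52.7% over all genes, to 68.3% in Idh2, and the windows held 14 to 28 CpG dinucleotides, against a median of 7. CCGGAAG, an ETS motif, stood in the Dlst window alone and in 9.12% of all windows. GCGCANGCG (NRF1), TCAAGGTCA (estrogen-related receptors), CACGTG (E-box), TGANTCA (AP-1) and AAGATGGCG (YY1) were in none of the 8 windows, against 6.47%, 0.407%, 7.24%, 7.93% and 1.49% of all windows. No match overlapped one of another motif, and a match or its lack describes the letters of the window only.

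The libraries were checked before the members were read. Arid1a stood at 135 to 242 counts-per-million units (CPM) in the 6 WT libraries and at 84.7 to 118 CPM in the 6 KO libraries, and it was lower in KO by 1.15 ± 0.14 at day 0 (log2 change -1.15, adjusted p = 0.0141) and by 0.71 ± 0.14 at day 4 (log2 change -0.71, adjusted p = 0.00793). At day 2 the change was -0.54 ± 0.14 and did not pass the test (adjusted p = 0.0613). The 4 day 0 libraries held the macrophage receptor gene Csf1r at 5630 to 7381 CPM. The summed level of 10 osteoclast markers was 172 to 279 CPM at day 0, 15706 and 20287 CPM in WT at day 4, and 4596 and 1672 CPM in KO at day 4. The 8 stromal markers of the list summed to 196 and 2271, 3730 and 4594, and 602 and 701 CPM in WT at days 0, 2 and 4, and to 2754 and 1185, 3437 and 907, and 727 and 21.9 CPM in KO, with Col1a1 as the largest part in WT at day 2 (1482 and 2038 CPM). Osteoblast, neutrophil, B cell, T and NK cell, erythroid and dendritic markers each summed to at most 45.9 CPM in every library. The 8 macrophage markers summed to 55831 and 51711 CPM in WT at day 0 and to 2880 and 2990 CPM at day 4, and in KO to 12605 and 13695 CPM at day 0 and 3718 and 5655 CPM at day 4. Among these markers only Lyz2 passed the test between genotypes at day 0 (log2 change -9.82 in KO). Marker sums moved with day and genotype, their part in the results below was not tested, and in bulk RNA fewer cells of a type and less RNA per cell cannot be told apart.

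In WT cultures the cycle genes rose with time. From day 0 to day 4, 8 of the 9 members were higher, against 29.1% of all 12774 genes called higher (adjusted p under 0.05 in edgeR's quasi-likelihood test). Idh3a gained most, 15.7-fold, followed by Mdh2 at 9.05-fold, and the other 6 that rose gained 3.10-fold (Dlst) to 4.40-fold (Cs). Fh1 did not pass the test. The median log2 change of the 9 members was 1.84, beside -0.04 over all genes tested. The members' summed level, set per transcript length in transcripts-per-million units (TPM), was 634 and 749 TPM at day 0, 1054 and 1130 TPM at day 2 and 3218 and 3521 TPM at day 4.

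**Figure D1:**
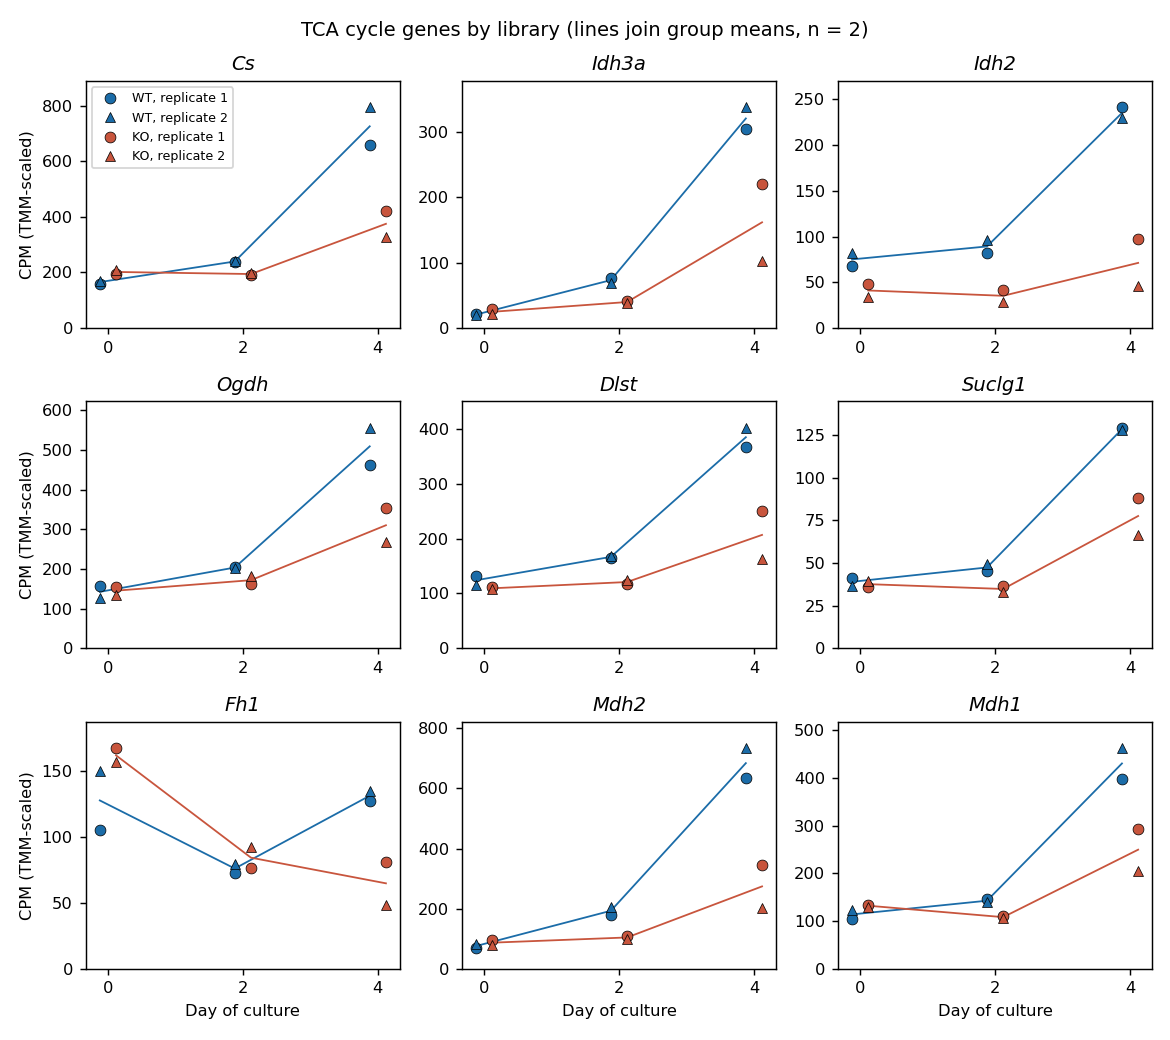
Level of each of the 9 members in CPM (linear axis from 0, a scale per panel) in every library, by day and genotype; circles are replicate 1, triangles replicate 2, and lines join the group means of 2 libraries. At day 4 the KO points lie under the WT points in all 9 panels, with Fh1 the member whose WT level at day 4 overlaps day 0.

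Cs encodes citrate synthase, which makes the cycle's citrate. It held 159 and 171 CPM in WT at day 0, 238 and 241 CPM at day 2 and 658 and 794 CPM at day 4. The days did not overlap, and the log2 level rose by 0.54 ± 0.14 from day 0 to day 2 (adjusted p = 0.0350), by 1.60 ± 0.14 from day 2 to day 4 (adjusted p = 8.13e-05) and by 2.14 ± 0.15 over the whole course (adjusted p = 1.26e-05).

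The isocitrate step has an NAD-dependent enzyme, of which Idh3a is the catalytic subunit, and an NADP-dependent mitochondrial enzyme, Idh2. Idh3a held 20.7 and 20.2 CPM at day 0, 77.2 and 69.4 CPM at day 2 and 304 and 338 CPM at day 4 in WT. Its rise was separate at each day, with log2 changes from day 0 of 1.84 ± 0.31 by day 2 (adjusted p = 0.00836) and 3.97 ± 0.34 by day 4 (adjusted p = 3.60e-05). Idh2 held 67.8 and 82.2 CPM at day 0, 82.0 and 96.3 CPM at day 2 and 241 and 229 CPM at day 4. Its day 0 and day 2 libraries overlapped, and the rise of 1.65 ± 0.34 by day 4 passed the test (adjusted p = 0.00352). Per length, Idh2 stood at 4.42 and 5.31 times the Idh3a level at day 0 in the WT libraries, and at 1.04 and 0.89 times at day 4.

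Idh3a works in a complex with the regulatory subunits Idh3b and Idh3g, named here after their values were seen. At day 0 in WT, Idh3a averaged 16.7 TPM, against 122 TPM for Idh3b and 175 TPM for Idh3g, so the catalytic subunit's mRNA was the lowest of the complex. At day 4 it averaged 289 TPM, level with Idh3b at 289 TPM and below Idh3g at 336 TPM. The 3 subunit mRNAs thus differed less at day 4 than at day 0.

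Ogdh and Dlst encode the E1 and E2 subunits of the 2-oxoglutarate dehydrogenase complex, and Suclg1 the alpha subunit of succinyl-CoA ligase that acts next. In WT, Ogdh held 158 and 127 CPM at day 0, 205 and 203 CPM at day 2 and 463 and 556 CPM at day 4. Dlst held 132 and 116, 165 and 168, and 368 and 402 CPM on the same days. Suclg1 held 41.4 and 36.6, 45.4 and 49.4, and 129 and 128 CPM. For these 3 genes each later day lay above the earlier ones without overlap. Of all genes, 34.3% did so from day 0 to day 2, 42.3% from day 2 to day 4 and 40.5% from day 0 to day 4. The steps to day 2 did not pass the test (log2 changes of 0.52, 0.43 and 0.28, with adjusted p of 0.0691, 0.126 and 0.190). By day 4 Ogdh had risen by 1.84 ± 0.18 (adjusted p = 5.24e-05), Dlst by 1.63 ± 0.18 (adjusted p = 0.000108) and Suclg1 by 1.72 ± 0.14 (adjusted p = 2.94e-05).

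Fh1 encodes fumarate hydratase, which turns fumarate into malate, and it had a course of its own in WT. It held 105 and 150 CPM at day 0, 72.7 and 79.0 CPM at day 2 and 127 and 135 CPM at day 4. Both day 2 libraries were below both day 0 libraries, as in 32.5% of all genes, with a log2 change of -0.75 ± 0.24 that missed the threshold (adjusted p = 0.0657). The day 4 libraries lay between the day 0 libraries (log2 change 0.04 ± 0.24, adjusted p = 0.897). From day 2 to day 4 Fh1 rose by 0.79 ± 0.24 (adjusted p = 0.0253), a call lost without any 1 of the 4 libraries (adjusted p = 0.0707 to 0.123).

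Mdh2, the mitochondrial malate dehydrogenase, closes the cycle, and Mdh1 is its cytosolic counterpart in the malate-aspartate shuttle. In WT, Mdh2 held 69.6 and 81.5 CPM at day 0, 180 and 206 CPM at day 2 and 635 and 733 CPM at day 4. It rose by 1.35 ± 0.23 from day 0 to day 2 (adjusted p = 0.00829), by 1.83 ± 0.24 from day 2 to day 4 (adjusted p = 0.000422) and by 3.18 ± 0.25 over the whole course (adjusted p = 2.18e-05). Mdh1 held 104 and 124, 146 and 140, and 399 and 462 CPM, with no overlap between days. Both day 2 libraries lay above both of day 0 in 34.3% of all genes. The rise of Mdh1 to day 2 did not pass the test (0.32 ± 0.17, adjusted p = 0.202), and the rise to day 4 did (1.92 ± 0.17, adjusted p = 4.04e-05). The ratio of Mdh2 to Mdh1 in TPM was 0.955 and 0.847 in the WT libraries at day 0, 1.55 and 1.78 at day 2, and 1.95 and 2.00 at day 4. Within each WT library Mdh2 mRNA was thus below Mdh1 mRNA at day 0 and above it at day 2 and day 4. Across the day 0 libraries the 2 genes overlapped, at 89.9 and 109.8 TPM for Mdh2 and 94.1 and 129.6 TPM for Mdh1.

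In WT, 3 of 9 members (Cs, Idh3a and Mdh2) rose from day 0 to day 2, against 8.06% of all genes called higher in that comparison. From day 2 to day 4 all 9 rose, against 27.4% of all genes, with a median log2 change of 1.44 beside 0.00 over all genes. Without either WT day 2 library, 1 of 9 members was called for the first step. With limma on log2(TPM + 1), the median of all genes shifted by 0.10 for day 2 and 0.14 for day 4 against day 0, and the split over all genes for day 2 was 1247 higher and 648 lower, where edgeR gave 1029 higher and 1182 lower.

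**Figure D2:**
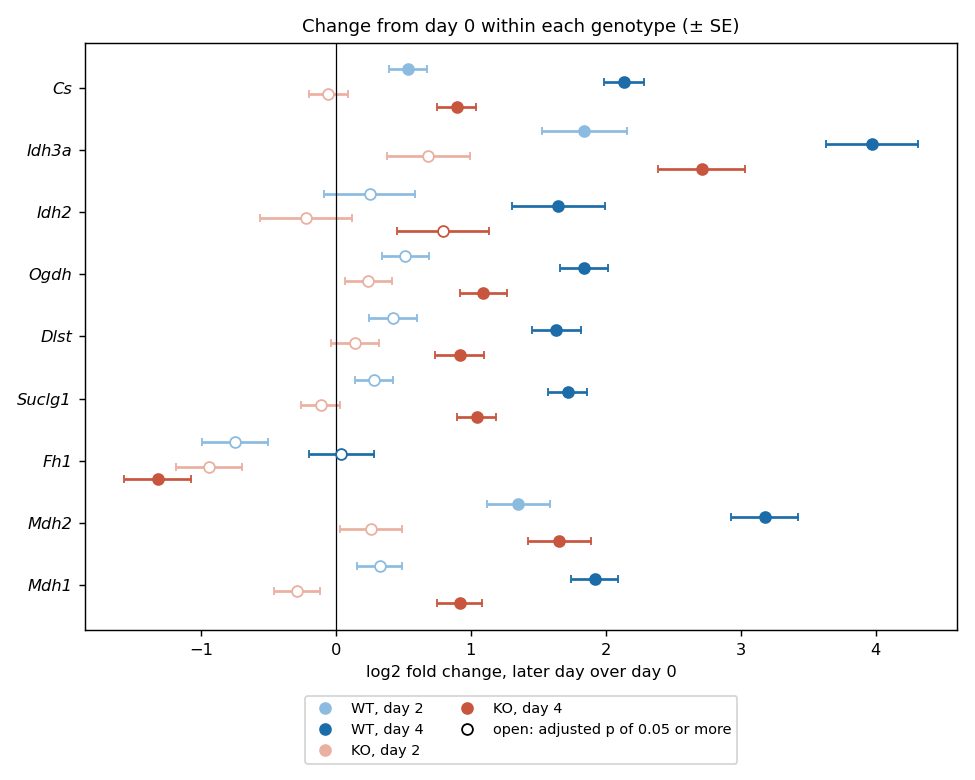
Log2 change of each member from day 0 to day 2 and to day 4, in WT and in KO, with the standard error of the fit as bars; filled points passed the test (adjusted p under 0.05). In the change from day 0 to day 4 the KO point lies left of the WT point for all 9 members, and Fh1 is at 0.04 in WT and -1.32 in KO.

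In KO cultures 7 of the 9 members rose by day 4 and none passed the test at day 2. No member was called between day 0 and day 2 by edgeR, where 1 of 9 had an unadjusted p under 0.05; DESeq2 called 1 and limma-voom 0, and edgeR called 3.01% of all genes higher and 1.73% lower. From day 0 to day 4, 7 members rose, Fh1 fell and Idh2 did not pass the test, against 23.3% of all genes called higher and 21.3% lower. From day 2 to day 4, 8 rose, against 22.1% of all genes. The median log2 change from day 0 to day 4 was 0.92, beside -0.06 over all genes.

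Citrate synthase mRNA in KO stood at 194 and 210 CPM at day 0, 192 and 196 CPM at day 2 and 422 and 328 CPM at day 4. Cs thus rose late, by 0.90 ± 0.14 over the whole course (adjusted p = 0.00128). Idh3a stood at 28.4 and 21.0, 41.1 and 38.3, and 221 and 103 CPM, and rose by 2.71 ± 0.32 (adjusted p = 0.000363), again the largest rise among the members. Idh2 stood at 48.1 and 33.9, 41.5 and 28.9, and 96.8 and 45.5 CPM. One KO day 4 library of Idh2 fell within its day 0 range, and the change of 0.80 ± 0.34 did not pass the test (adjusted p = 0.0895). Idh2 was 2.30 and 2.12 times the Idh3a level in TPM at day 0 and 0.580 and 0.593 times at day 4.

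For the middle of the cycle, Ogdh stood at 156 and 135 CPM in KO at day 0, 162 and 182 CPM at day 2 and 353 and 268 CPM at day 4. Dlst stood at 111 and 108, 118 and 124, and 250.4 and 163 CPM. Suclg1 stood at 36.1 and 39.2, 36.4 and 33.2, and 88.4 and 66.7 CPM. All 3 were higher in both day 4 libraries than in any KO library of day 0 or day 2. Of all genes, 35.3% lay higher at day 4 than at day 0 without overlap, and 34.8% higher than at day 2. The changes from day 0 were 1.09 ± 0.17 for Ogdh (adjusted p = 0.00124), 0.92 ± 0.18 for Dlst (adjusted p = 0.00354) and 1.04 ± 0.14 for Suclg1 (adjusted p = 0.000626).

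Fumarate hydratase mRNA went down. Fh1 stood at 167 and 156 CPM in KO at day 0, 76.2 and 92.0 CPM at day 2 and 81.1 and 48.2 CPM at day 4. Both later days lay below day 0 without overlap, as in 29.3% of all genes for day 2 and 39.4% for day 4. The fall to day 4 passed the test (log2 change -1.32 ± 0.25, adjusted p = 0.00287), while the change to day 2 did not (-0.94 ± 0.24, adjusted p = 0.0685). DESeq2 gave an adjusted p of 0.00645 for the change to day 2.

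Mdh2 in KO stood at 94.3 and 79.4 CPM at day 0, 109 and 99.7 CPM at day 2 and 345 and 203 CPM at day 4, a rise of 1.66 ± 0.23 (adjusted p = 0.000733). Mdh1 stood at 134 and 130.2, 109.7 and 107, and 294 and 206 CPM, a rise of 0.92 ± 0.17 (adjusted p = 0.00266). At day 2 both Mdh1 libraries were below both of day 0, as in 29.3% of all genes, with a change of -0.29 ± 0.17 that did not pass the test (adjusted p = 0.379). The ratio of Mdh2 to Mdh1 in TPM was 1.01 and 0.796 at day 0, 1.24 in both libraries at day 2, and 1.50 and 1.22 at day 4.

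The KO day 4 libraries were unlike each other for these genes. Replicate 1 was above replicate 2 for all 9 members, as for 56.5% of all genes, by a log2 difference of 0.36 (Cs) to 1.10 (Idh3a), where the median size of that difference over all genes was 0.31. The same replicate 1 held the larger osteoclast marker sum (4596 against 1672 CPM) and the larger stromal marker sum (727 against 21.9 CPM), and the part of these markers in the members' levels was not tested. For KO day 4 against day 2, the split over all genes was 2829 higher and 2630 lower in edgeR and 3380 higher and 2060 lower on log2(TPM + 1).

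The genotypes were then compared at each day. At day 0 no member was called by edgeR (1 of 9 at an unadjusted p under 0.05; DESeq2 0, limma-voom 0), where 1.58% of all genes were called. Idh2 had the largest difference, with a log2 change of -0.87 ± 0.34 (adjusted p = 0.286). Each of its KO libraries was under each WT library, as in 20.5% of all genes. The other 8 lay between -0.18 ± 0.18 (Dlst) and 0.34 ± 0.24 (Fh1), and the median of the 9 was 0.20, beside 0.03 over all genes. The day 0 cultures differed in other genes: the lower macrophage marker sum in KO was mostly that of Lyz2, at 41319 and 36018 CPM in WT and 36.4 and 49.2 CPM in KO.

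At day 2 8 of 9 members, all but Fh1, had each KO library under each WT library, where 31.0% of all genes did so. None passed edgeR's test, in which 1.42% of all genes were called lower. Of the 9, 6 had an unadjusted p under 0.05, DESeq2 called 4 (Idh2, Idh3a, Suclg1 and Mdh2), limma-voom called 0, and edgeR fitted to the 4 day 2 libraries alone called 4 (Idh2, Idh3a, Dlst and Mdh2) and 1005 genes in all, where the fit to all 12 libraries called 577. The largest differences were those of Idh2 (-1.34 ± 0.34, adjusted p = 0.0642), Mdh2 (-0.89 ± 0.23, adjusted p = 0.0634) and Idh3a (-0.88 ± 0.31, adjusted p = 0.127). Fh1 overlapped between genotypes (0.15 ± 0.24, adjusted p = 0.736). On log2(TPM + 1) the median of all genes shifted by -0.11 and the calls over all genes split into 331 higher and 347 lower, where edgeR gave 395 and 182. Osteoclast markers summed to 2644 and 2921 CPM in WT and to 259 and 235 CPM in KO at this day, and their part was not tested.

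At day 4 all 9 members were lower in KO, against 11.1% of all genes called lower. In each of the 9, the KO and WT libraries did not overlap, and 34.5% of all genes lay lower in KO without overlap. Idh2 stood at 0.303 times the WT level (log2 change -1.72 ± 0.34, adjusted p = 0.00907), Mdh2 at 0.401 times (-1.32 ± 0.23, adjusted p = 0.00499) and Fh1 at 0.494 times (-1.02 ± 0.24, adjusted p = 0.0180). Ogdh changed least, at 0.609 times (-0.71 ± 0.17, adjusted p = 0.0178). The other 5 were between: Idh3a at -0.99 ± 0.30 (adjusted p = 0.0439), Cs at -0.95 ± 0.14 (adjusted p = 0.00259), Dlst at -0.90 ± 0.18 (adjusted p = 0.00834), Mdh1 at -0.79 ± 0.17 (adjusted p = 0.0113) and Suclg1 at -0.73 ± 0.14 (adjusted p = 0.00725). The median was -0.95, beside -0.03 over all genes. Other cell markers moved with this comparison: 5 of 8 macrophage markers were higher in KO (Adgre1 18.1-fold, Cx3cr1 14.5-fold, Mrc1 7.88-fold, Itgam 4.93-fold and Cd14 4.83-fold) and Lyz2 was lower, while 5 of 10 osteoclast markers were lower, and their part in the members' change was not tested. The members' calls rest on a spread shared over all 12 libraries: fitted to the 4 day 4 libraries alone, edgeR called 0 of 9 members (8 at an unadjusted p under 0.05) and 2 genes in all. Without WT day 4 replicate 2 it called 4 members (Cs, Idh2, Suclg1 and Mdh2), without KO day 4 replicate 2 it called 6, without WT day 4 replicate 1 it called 7, and without KO day 4 replicate 1 it called 9.

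**Figure D3:**
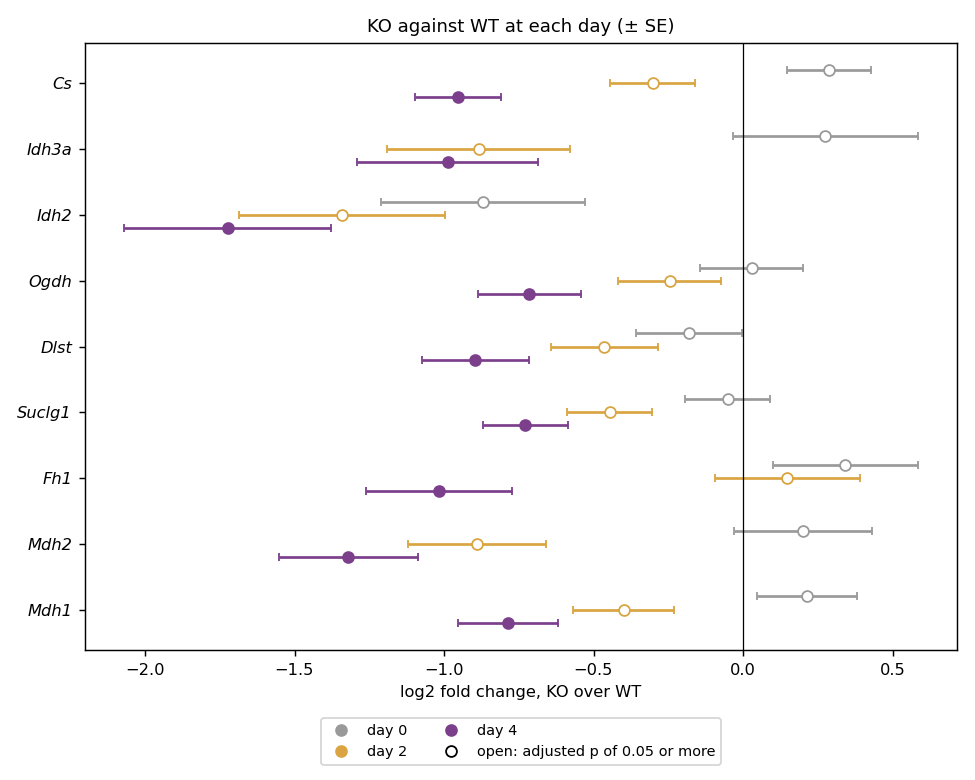
Log2 change of KO against WT for each member at day 0, day 2 and day 4, with the standard error of the fit as bars; filled points passed the test (adjusted p under 0.05). No point is filled at day 0 or day 2, and all 9 are filled at day 4, from -0.71 (Ogdh) to -1.72 (Idh2).

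The KO level at day 4 was above the WT level of day 2 for some members. In 5 of 9 (Cs, Idh3a, Ogdh, Suclg1 and Mdh1), both KO day 4 libraries were above both WT day 2 libraries, as in 37.1% of all genes. For Fh1 the KO day 4 libraries, at 81.1 and 48.2 CPM, lay on both sides of the WT day 2 libraries at 72.7 and 79.0 CPM. Idh2, Dlst and Mdh2 had at least 1 KO day 4 library within or below the WT day 2 range.

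Whether the course itself differed by genotype was tested with an interaction term. From day 0 to day 4, 4 of 9 members had a lower change in KO, against 2.82% of all genes called in that direction: Mdh2 (log2 difference -1.52 ± 0.33, adjusted p = 0.0272), Fh1 (-1.36 ± 0.34, adjusted p = 0.0468), Cs (-1.24 ± 0.20, adjusted p = 0.0118) and Mdh1 (-1.0 ± 0.24, adjusted p = 0.0383). The other 5 had differences of -0.68 (Suclg1) to -1.26 (Idh3a) that did not pass the test, with adjusted p of 0.0707 to 0.294. The count was 0 without WT day 4 replicate 2, without KO day 0 replicate 1 or without KO day 0 replicate 2, 1 (Cs) without WT day 0 replicate 1 or without WT day 4 replicate 1, and 9 without KO day 4 replicate 1. From day 0 to day 2 no interaction was called (4 of 9 at an unadjusted p under 0.05; DESeq2 0, limma-voom 0), where 0.00783% of all genes were called, and from day 2 to day 4 none was called either (2 of 9 at an unadjusted p under 0.05; DESeq2 2, limma-voom 0), where 3.09% of all genes were.

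Per length, the order of the member mRNAs changed with time. In WT at day 0 Mdh1 led at a mean of 112 TPM and Idh3a was lowest at 16.7 TPM, and from Mdh1 down to Dlst each neighbour in the order overlapped the next. In WT at day 4 Mdh2 led at 1000 TPM, above Mdh1 at 506 TPM with no overlap, Cs at 491 TPM overlapped Mdh1, and Idh3a had come up to the fourth place at 289 TPM, overlapping Idh2 at 278 TPM. Fh1 was lowest at 97.1 TPM, below Suclg1 at 198 TPM with no overlap. In KO at day 4 Mdh2 led at 396 TPM but overlapped Mdh1 at 285 TPM, and Fh1 was again lowest at 49.0 TPM, overlapping Idh2 at 83.6 TPM.

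Over the 12 libraries, the 9 members followed 1 course except Fh1. The correlation of each member's log2 CPM with the mean of the other members was 0.831 for Idh2, 0.926 to 0.988 for 7 members and -0.06 for Fh1, as a description over 12 libraries that share days and genotypes. The genes outside the lists most like the members' mean course were Uqcrc1 (r = 0.9955) and Uqcrc2 (r = 0.9943), core subunits of respiratory complex III, Ndufs1 (r = 0.9939), a subunit of complex I, Txn2 (r = 0.9933), the mitochondrial thioredoxin, and Atp5a1 (r = 0.9926), the alpha subunit of ATP synthase. Of 9695 genes ranked, 12.2% had r over 0.9.

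Of the other cycle subunits, the 9 described here are partners of the members and the succinate dehydrogenase subunits. All 9 rose in WT from day 0 to day 4, against 29.1% of all genes, with a median log2 change of 1.14 beside -0.04 over all genes. In KO 6 of 9 rose, against 23.3% of all genes, all but Idh3b (0.26), Idh3g (-0.20) and Sdhb (0.33). Dld, the E3 subunit shared by the 2-oxoglutarate and pyruvate dehydrogenase complexes, rose by 2.07 ± 0.15. The succinate dehydrogenase subunits Sdha and Sdhc rose by 1.32 ± 0.13 and 1.31 ± 0.09. From day 0 to day 2 in WT edgeR called 0 of the 9, against 17.3% of all genes, with 3 at an unadjusted p under 0.05. In KO against WT at day 4, 8 of the 9 were lower, against 11.1% of all genes. The median was -0.53, beside -0.03 over all genes, with Dld (-1.11 ± 0.14), Idh3g (-0.91 ± 0.15) and Sdhb (-0.84 ± 0.15) in front. Suclg2, the GTP-linked beta partner of Suclg1, was the exception, named after its values were seen (-0.53 ± 0.28, adjusted p = 0.197). At day 0 and day 2, 0 of the 9 were called by edgeR between genotypes, with 0 and 3 at an unadjusted p under 0.05. Of all genes, 1.58% and 4.52% were called on these days.

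**Figure D4:**
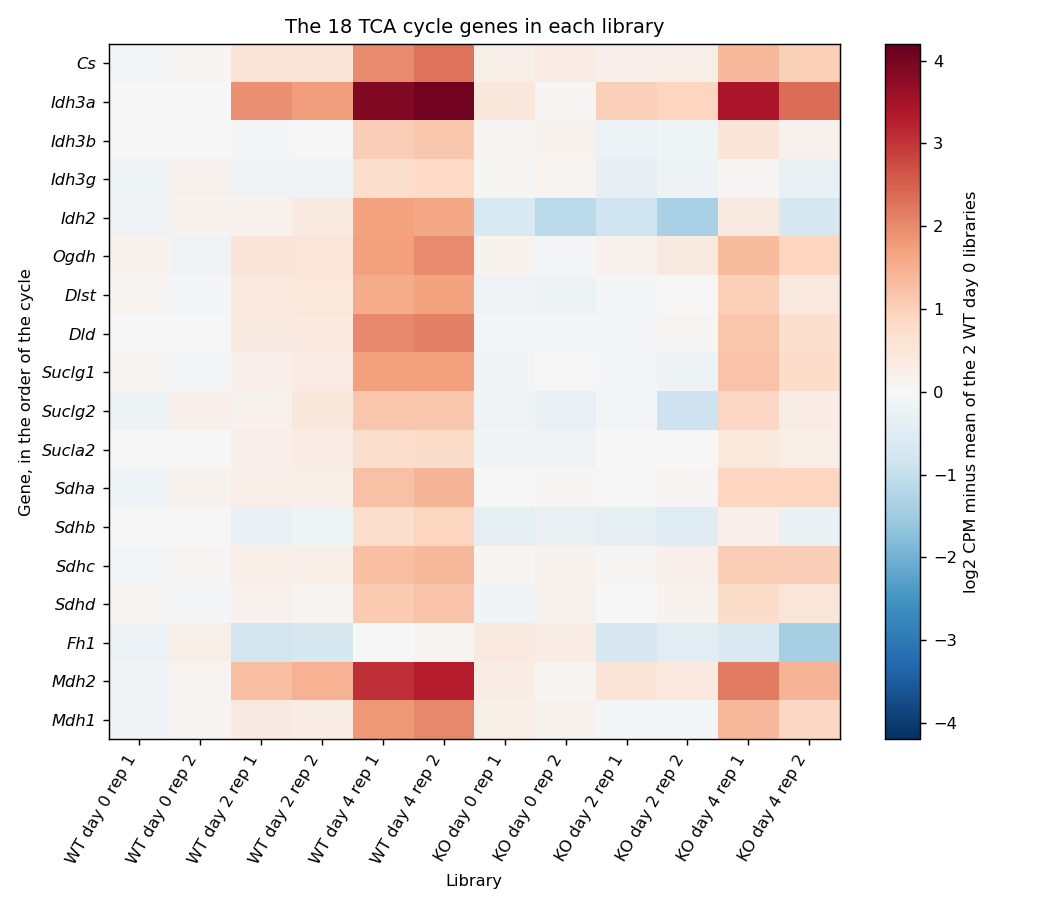
Log2 CPM of the 9 members and 9 other cycle subunits in the 12 libraries, as the difference from the mean of the 2 WT day 0 libraries of the same gene; red is higher and blue lower. WT day 4 columns are red for every gene but Fh1, whose lowest value is in KO at day 4.

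Pyruvate enters the cycle through the mitochondrial carrier and the pyruvate dehydrogenase complex. Of 13 genes of this step, 8 rose and 3 fell in WT from day 0 to day 4, where 29.1% of all genes were called higher and 27.6% lower. The complex's subunits Pdhb (2.38 ± 0.16), Dlat (2.09 ± 0.19) and Pdha1 (1.89 ± 0.24) rose, and Pdp1, a phosphatase that activates it, fell by 2.05 on the log2 scale (SE 0.29). In KO against WT at day 4, 6 of 13 were lower and none higher by edgeR (7 at an unadjusted p under 0.05), against 11.1% of all genes lower and 14.5% higher, with Pdha1 (-1.35 ± 0.23), Pdhb (-1.04 ± 0.16), the carrier subunit Mpc2 (-0.92 ± 0.17) and Dlat (-0.91 ± 0.18) in front.

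Genes that carry or feed cycle intermediates were mixed. Of 14 tested of 15, 7 rose and 0 fell in WT from day 0 to day 4 (7 at an unadjusted p under 0.05), against 29.1% and 27.6% of all genes, with malic enzyme Me2 at 2.42 ± 0.22, the aspartate-glutamate carrier Slc25a13 at 2.06 ± 0.41, and the aspartate aminotransferases Got2 at 1.70 ± 0.16 and Got1 at 1.09 ± 0.23. At day 4, 7 were lower and 3 higher in KO, against 11.1% and 14.5% of all genes. Slc25a13 (-1.60 ± 0.40), Pck2 (-1.46 ± 0.42), the mitochondrial phosphoenolpyruvate carboxykinase, and Got1 (-1.19 ± 0.23) were lower. At day 0 both Slc25a13 libraries of KO, at 5.87 and 5.09 CPM, were below both of WT, at 16.8 and 17.3 CPM. Of all genes, 20.5% lay lower in KO without overlap at day 0. At day 2 both Got1 libraries of KO, at 275 and 252 CPM, were above both of WT, at 155 and 145 CPM, as in 32.2% of all genes. The day 0 values of Slc25a13 and the day 2 values of Got1 are given as levels, without a test result. Acod1, whose enzyme draws cis-aconitate out of the cycle to make itaconate, was higher in KO at day 4. It held 3.29 and 2.36 CPM in WT and 62.2 and 184 CPM in KO at that day (5.44 ± 0.70, adjusted p = 0.00180).

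Of 6 paralogs outside the cycle, 4 were tested, and 2 of these fell in WT from day 0 to day 4 and none rose (3 at an unadjusted p under 0.05 in edgeR), where 27.6% of all genes were called lower and 29.1% higher. Idh1, the cytosolic NADP-dependent isocitrate dehydrogenase, fell from 600 and 421 CPM to 117 and 104 CPM (log2 change -2.21 ± 0.23, adjusted p = 8.32e-05), while its mitochondrial relative Idh2 rose. Dhtkd1, a mitochondrial relative of Ogdh, was called lower as well (-1.57, adjusted p = 0.0481), but near the floor. It held 1.51 and 1.88 CPM at day 0 and 0.46 and 0.67 CPM at day 4 in WT. In TPM these days overlapped, at 0.70 and 0.64 TPM at day 0 and 0.22 and 1.11 TPM at day 4. Aco1, cytosolic aconitase, held 102 and 85.9 CPM at day 0 and 116 and 122 CPM at day 4 in WT, and was lower in KO at day 4 (-1.01 ± 0.13, adjusted p = 0.00164).

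Among 11 factors known to drive mitochondrial biogenesis, 10 were tested and 9 rose in WT from day 0 to day 4, against 29.1% of all genes. Ppargc1b held 3.32 and 2.76 CPM at day 0, 14.5 and 17.6 CPM at day 2 and 58.8 and 74.3 CPM at day 4 in WT. In KO it held 3.26 and 2.58, 5.56 and 10.6, and 42.3 and 14.0 CPM. Both KO libraries were below both WT libraries at day 2 and at day 4, as in 31% and 34.5% of all genes. The day 4 difference of -1.24 ± 0.48 did not pass the test (adjusted p = 0.0913). Its WT rise was 4.45 ± 0.55 (adjusted p = 0.000229), and Myc rose by 4.13 ± 0.50, the coactivator gene Pprc1 by 1.72 ± 0.31 and Polrmt, the mitochondrial RNA polymerase, by 1.08 ± 0.22. At day 4, 4 of the 10 were lower in KO, against 11.1% of all genes: Tfb2m (-0.97, adjusted p = 0.0171), a mitochondrial transcription initiation factor, Tfb1m (-0.76, adjusted p = 0.0428), which methylates mitochondrial ribosomal RNA, Esrra (-0.65 ± 0.12, adjusted p = 0.00586), a nuclear receptor, and Gabpa (-0.49, adjusted p = 0.0292), an ETS factor.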

How the data were processed

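RNA-seq of 12 of the series' 37 samples was used; its 12 ATAC-seq and 13 CUT&Tag samples were not analysed here. The authors deposited, per the file headers, a table of expected counts and a table of TPM values per gene. The submitters' processing notes name, among others, RSEM 1.3.1, STAR 2.7.3a, DESeq2 and Trim Galore 0.6.1, and the builds mm9 and mm10 without saying which assay used which; gene models and strand setting are not given in the sources used here, so reads shared with near-identical copies may have been split between genes.

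Expected counts were used as deposited and were rounded to whole numbers for DESeq2 only. Genes were filtered with edgeR's filterByExpr (minimum count 10). TMM-scaled counts of all 12 libraries were fitted in 1 model of 6 groups with the quasi-likelihood test of edgeR 4.0.16 in R 4.3.3. P-values were Benjamini-Hochberg adjusted over all 12774 genes for each of 12 comparisons, and a gene was called at an adjusted p under 0.05. Changes are log2 with the standard error of the fit, and CPM are TMM-scaled. In edgeR this standard error was derived as the size of the log2 change divided by the square root of the quasi-likelihood F statistic. The common biological coefficient of variation was 0.261. Standard errors and intervals cover the spread between these libraries only.

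Alternatives were DESeq2 1.42.0, limma 3.58.1 (voom, or log2(TPM + 1) and log2(TPM + 0.1) of the deposited TPM), other filters, scalings and blocks, and leaving out each library. The procedure was also run on simulated counts, with equal means in all groups apart from changes set in KO at day 4. These counts lack the changes with time of the real data, so that run does not test the calls made here. The members and the gene lists were chosen with earlier results of these data known. All members are named; of each other list up to 4 called genes with the largest change in WT day 4 against day 0 and in KO against WT at day 4 are named, and the 5 genes of at least 5 CPM most like the members' mean course. None of 9 mitochondrially encoded RNAs that were to serve as a check of RNA quality is among the listed gene names, so that check was not made. 1 gene of the list of other cycle subunits is not reported here, and that list's counts are given without it.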

Additional observations from a re-analysis of the deposited data

Results flagged for a closer look

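The change from day 0 to day 4 differed between genotypes for 4 members by the interaction test itself, each gaining less or falling more in KO: Mdh2 (log2 difference -1.52), Fh1 (-1.36), Cs (-1.24) and Mdh1 (-1.0). From day 0 to day 2, Mdh1 was higher in both WT libraries and lower in both KO libraries of day 2 than in those of day 0, with a log2 difference of -0.61 that did not pass the interaction test (adjusted p = 0.506).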

How the results depend on the processing

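Of 1620 values of single members under an alternative, 1503 kept direction and side of the threshold, 66 lost the call, 38 gained it and 13 turned direction, none of these 13 being a call. With a minimum log2 change of 1, the members called were 3 in KO against WT at day 4, and 5 in KO at day 4 against both day 0 and day 2. Fitting only the libraries of a comparison gave 4 in KO against WT at day 2 and 0 at day 4. Such fits gave 1 in KO at day 2 against day 0, 6 in KO at day 4 against day 2, and 0 for the interaction from day 0 to day 4. These fits hold fewer libraries. DESeq2 called 4 in KO against WT at day 2, 5 in WT at day 2 against day 0, 1 in KO at day 2 against day 0 and 2 for the interaction from day 2 to day 4, and the cause was not tested. Over all genes, the calls were 3271 in KO against WT at day 4 (1118 to 4457 on leaving out 1 library, 2 to 3955 under the other alternatives), 577 at day 2 (1 to 158, and 332 to 1634), 202 at day 0 (2 to 227, and 7 to 754), 2211 in WT at day 2 against day 0 (473 to 1453, and 900 to 3250), 7255 in WT at day 4 against day 0 (5859 to 6666, and 4522 to 7570), 606 in KO at day 2 against day 0 (122 to 238, and 326 to 1320), 5701 in KO at day 4 against day 0 (3802 to 5546, and 3045 to 6324) and 1094 for the interaction from day 0 to day 4 (141 to 2989, and 226 to 2079).

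Leaving out 1 library gave 4 to 9 in KO against WT at day 4, 1 to 2 in WT at day 2 against day 0, 0 to 9 for the interaction from day 0 to day 4 and 0 to 5 for that from day 2 to day 4. The labels do not say that replicate numbers mark a shared animal or batch, and each comparison has 2 of them. Replicate differences correlated at 0.114 to 0.268 between WT days and 0.39 to 0.526 between KO days, and at -0.317, -0.0557 and -0.06 between genotypes at day 0, 2 and 4. A replicate block shared by all groups gave 2 members for the interaction from day 0 to day 4; a replicate block within genotype gave 6 for it, as did DESeq2, and 1 in KO against WT at day 0 and 3 at day 2.

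The values that turned direction, with the range over leaving out 1 library, were those of Idh2 in KO at day 2 against day 0 (-0.52 to 0.053, above 0 at 0.018 also without KO day 2 replicate 2), Idh2 and Idh3a in the interaction from day 2 to day 4 (-1.03 to 0.063 and -0.76 to 0.35), Ogdh in KO against WT at day 0 (-0.0102 with DESeq2 size factors, -0.0101 with DESeq2, and -0.11 to 0.16, with -0.091 on leaving out KO day 0 replicate 1), Suclg1 in KO against WT at day 0 (-0.13 to 0.012), and Fh1 in WT at day 4 against day 0 (-0.0048 with a stricter filter and -0.22 to 0.32, with -0.0013 on leaving out WT day 4 replicate 2) and in the interaction from day 0 to day 2 (-0.49 to 0.054); the cause was not tested. With 2 libraries a group, small changes at day 0 and day 2 may be below what these data can detect.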
